A study of Rattus norvegicus with 196 samples.

Results

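The arcuate nucleus (Arc) of the hypothalamus was compared between rats given fluoxetine (FT), a selective serotonin reuptake inhibitor, and rats given water (Sham). Members were all samples whose labels name the brain region ARC or Arc, which gave 6 samples of the series against 190 of the other regions. There were 4 FT samples, replicates 1, 3, 4 and 5, and 2 Sham samples, replicates 4 and 5. The animals were male Long-Evans rats 2 months old, and fluoxetine was given at 18 mg/kg body weight in the drinking water for 6 weeks. Each sample was a pool of tissue punches from the frozen brains of several animals, so that a sample is not a single rat and holds every cell type within reach of the punch. The FT and Sham sample of a number were handled in parallel, so replicates 4 and 5 form 2 complete pairs and FT replicates 1 and 3 have no Sham partner.

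The arcuate nucleus lies at the base of the third ventricle, beside the median eminence. It is known for neurons that sense hormones and nutrients and set appetite, and for neuroendocrine neurons that govern the anterior pituitary. Among the latter are the tuberoinfundibular dopamine neurons, whose dopamine restrains the release of prolactin, and neurons that make galanin, somatostatin or growth hormone-releasing hormone. The magnocellular peptides oxytocin and vasopressin are made mainly in the paraventricular and supraoptic nuclei, and orexin in the lateral hypothalamus. In bulk samples such as these, fewer cells of a type and less RNA per cell cannot be told apart.

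The label was checked against the levels of marker transcripts in the Sham samples of all 25 regions, in CPM (counts scaled to a common library size) over all samples. Arc had the highest median of all regions for Asb4, a gene of appetite neurons, at 42.5 CPM against 8.32 CPM in the next region, the ventromedial hypothalamus (VMH). It was also first for Npvf, which encodes the RFamide-related peptides and marks the adjacent dorsomedial nucleus, at 96.3 against 25 CPM in VMH, and for Cartpt, the precursor of the CART peptides, at 178 against 148 CPM in the periaqueductal gray. Arc was second after the ventral tegmental area for the dopamine transporter Slc6a3 (20.4 against 64.4 CPM) and behind it and the locus coeruleus for tyrosine hydroxylase, Th (76.3 CPM). The other members of the arcuate list did not rank first. Arc was second for Gal, 12th of 25 for PENK, 13th for Crabp1, 15th for Tacr3 and 21st for Sst. Cga, the alpha subunit of the pituitary glycoprotein hormones and no product of hypothalamic neurons, was likewise highest in Arc, at 254 CPM against 17.3 CPM in VMH. The sources used here pair no transcript with the names Agrp, Npy, Pomc, Kiss1, Ghrh or Prlr, and these were not analysed here.

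The 6 libraries held 5876787 to 14442194 counts on transcripts. FT replicate 3 stood apart. In it the 50 most abundant transcripts took 73.2% of all counts, against 24.1 to 32.6% in the other 5 libraries. Its scaling factor was 0.327, against 0.977 to 1.42 in the others. FT replicates 1 and 3 also differed together from the remaining 4 libraries in many transcripts, as the values below show, and the Sham libraries of replicate 3 in other regions shared some of these differences. FT values in Arc are therefore read against the Sham sample with the same number. Where values are listed, Sham samples are in the order 4 and 5 and FT samples in the order 1, 3, 4 and 5. They are CPM scaled within the 6 Arc libraries by trimmed mean of M values (TMM), and since they are not per length they are compared between samples and never between genes.

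To ask which transcripts differed between FT and Sham, 14464 transcripts were tested with the edgeR quasi-likelihood test and the replicate number as a block. A differentially expressed transcript (DEG) was defined by its log2 fold change (log2FC, FT over Sham), above 0.32 in absolute value, and by its p after Benjamini-Hochberg adjustment, up to 0.1. There were 1988 transcripts higher in FT (13.7% of those tested) and 1563 lower (10.8%), 24.6% in all. The FT to Sham log2 ratios of the 2 pairs had a Pearson r of 0.63 across the 14464 transcripts, which share their libraries and are not independent, and 74.9% of transcripts had the same sign in both pairs. The block leaves the log2FC to replicates 4 and 5 and leaves 1 residual degree of freedom, so the error of each transcript is largely borrowed from the others. DESeq2 with the same block called 505 higher (5.32%) and 314 lower (3.31%), each of them among the edgeR calls in the same direction, out of 9495 transcripts to which it gave an adjusted p. Without the block, edgeR called 0 transcripts over the 6 samples, with 1409 at an unadjusted p under 0.05, and DESeq2 called 280. Among the 103 genes named below, 19 then had a log2FC of the other sign, including Cartpt (1.81), Chga (1.72), Enho (2.56) and Kcnk9 (1.08), in all of which FT replicate 3 was the highest sample. With only the 4 paired samples and no block, edgeR called 2138 higher (14.7%) and 2199 lower (15.2%), of which 1906 and 1546 were among the calls made with the block in the same direction.

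**Figure D1:**
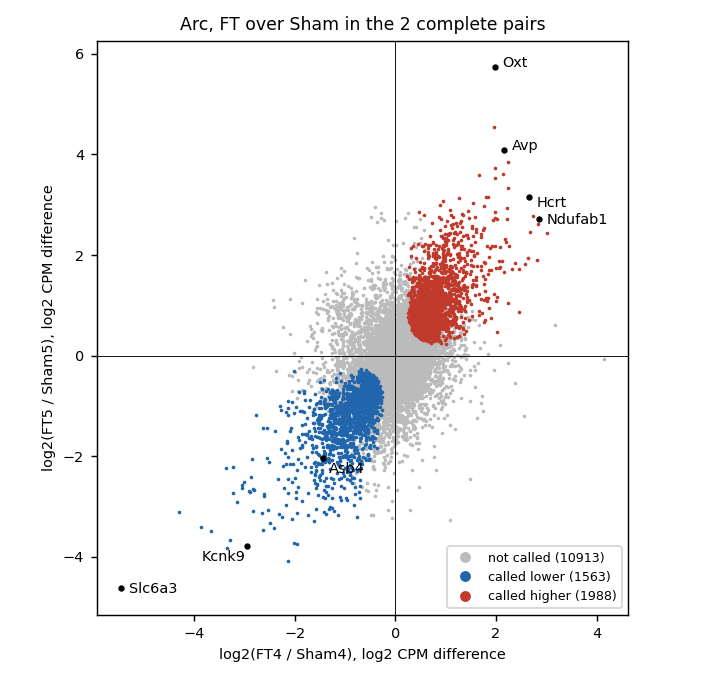
The log2 ratio of FT to Sham in the pair of replicate 5 (vertical axis) is plotted against that in the pair of replicate 4 (horizontal axis) for 14464 transcripts, each a point, as differences of log2 CPM. The 1988 transcripts called higher (red) lie in the upper right and the 1563 called lower (blue) in the lower left, with Slc6a3 at -5.46 and -4.63 and Oxt at 1.98 and 5.74.

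All 4 FT samples lay above both Sham samples for 1036 of the 1988 transcripts called higher, against 16.0% of all transcripts tested, and all 4 lay below both for 741 of the 1563 called lower, against 15.3%. In the 4 paired samples alone, FT lay above Sham for 1978 of the calls and below it for 1558, against 34.4% and 30.8% of all transcripts. The calls rest on these same 4 samples, so this separation follows from the calling and adds no support. In the counts over 6 samples, only FT replicates 1 and 3 stand outside the log2FC behind the calls. Among the genes named below, FT replicates 1 and 3 both lay on the other side of both Sham samples for 10 called higher and 8 called lower. An exact permutation test of 4 FT against 2 Sham samples cannot give a two-sided p below 0.133. Gene names were available for 1835 of the 14464 transcripts. These came from a list of transcripts that the study had called in 2 or more regions of the same animals, and 70.7% of them were called in Arc, 44.5% higher and 26.2% lower. DESeq2 with the block called 25.9% of those it tested higher and 13.2% lower. In 54.7% of named transcripts both paired FT samples lay above both Sham samples, and in 34.7% below. The counts of list members below are to be read against these shares, and they are no independent evidence of a direction. The median log2FC was 0.018 over all transcripts and 0.43 over those with a name.

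The dopamine transporter had the largest fall among named genes with a mean of at least 5 CPM and the same direction in both pairs. Slc6a3 (ENSRNOT00000040291), the transporter that returns dopamine to the neuron, had 32.1 and 16.6 CPM in Sham and 0.501, 5.21, 0.577 and 0.518 CPM in FT. All FT samples lay below both Sham samples, FT replicate 3 being the highest of the 4. FT replicates 1 and 3 have no Sham partner. On the scale over all samples, Sham replicates 1 and 3 were also low in the lateral hypothalamus. They had 0.495 and 2.69 CPM there, against 11.2 and 5.15 CPM in Sham 4 and 5. In VMH they had 0.0666 and 0.724 against 0.334 and 0.379 CPM. Slc6a3 fell (log2FC -5.47, SE 0.33, adjusted p = 0.00884), and DESeq2 gave a log2FC of -5.46. In reads, Slc6a3 had 460 and 339 in Sham against 10 and 6 in the paired FT samples and 5 and 10 in FT replicates 1 and 3. Th (ENSRNOT00000027682), the rate-limiting enzyme of catecholamine synthesis, had 111 and 70.7 CPM in Sham and 90.5, 72, 40.5 and 44.4 CPM in FT. The paired FT samples were the lowest of the 6, while FT replicates 1 and 3 lay between the Sham values, and Th fell (log2FC -1.07, SE 0.21, adjusted p = 0.0325). DRD2, the dopamine D2 receptor, had 8.45 and 7.1 CPM in Sham and 8.12, 4.17, 7.39 and 5.7 CPM in FT, with overlapping groups, and was not called (log2FC -0.25, SE 0.24, adjusted p = 0.504). Of the 3 dopamine genes measured, 2 fell and none rose, against 26.2% and 44.5% of named transcripts.

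Of 4 genes of the metabolism of tetrahydrobiopterin, the cofactor of tyrosine and tryptophan hydroxylase, 3 were called higher (against 44.5% of named transcripts) and none lower (26.2%). Spr, sepiapterin reductase, which completes its synthesis, had 7.68 and 6.46 CPM in Sham and 46, 62.6, 13.3 and 17.9 CPM in FT and rose (log2FC 1.13, SE 0.22, adjusted p = 0.0307). Qdpr, dihydropteridine reductase, which regenerates the cofactor, had 79.2 and 67.2 CPM in Sham and 285, 441, 126 and 142 CPM in FT and also rose (log2FC 0.88, SE 0.18, adjusted p = 0.0342). Gchfr, a regulator of the first enzyme of the pathway, had 8.03 and 6.32 CPM in Sham and 17.9, 10.9, 14.2 and 14.8 CPM in FT and rose in this test (log2FC 1.02, SE 0.22, adjusted p = 0.037) but not with DESeq2 (adjusted p = 0.197). Pts, which acts between those steps, had 7.68 and 18.1 CPM in Sham and 25, 19.3, 26.5 and 21.9 CPM in FT and missed the threshold (log2FC 1.0, SE 0.35, adjusted p = 0.103). In all 4 of these genes every FT sample was above both Sham samples, against 31.3% of named transcripts. The high values of FT replicates 1 and 3 have no Sham partner. In VMH, on the scale set over all samples, Sham replicates 1 and 3 were also high, with 317 and 704 CPM of Qdpr against 150.5 and 124 CPM in Sham 4 and 5, and 27 and 37.3 against 7.51 and 10.2 CPM of Spr.

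**Figure D2:**
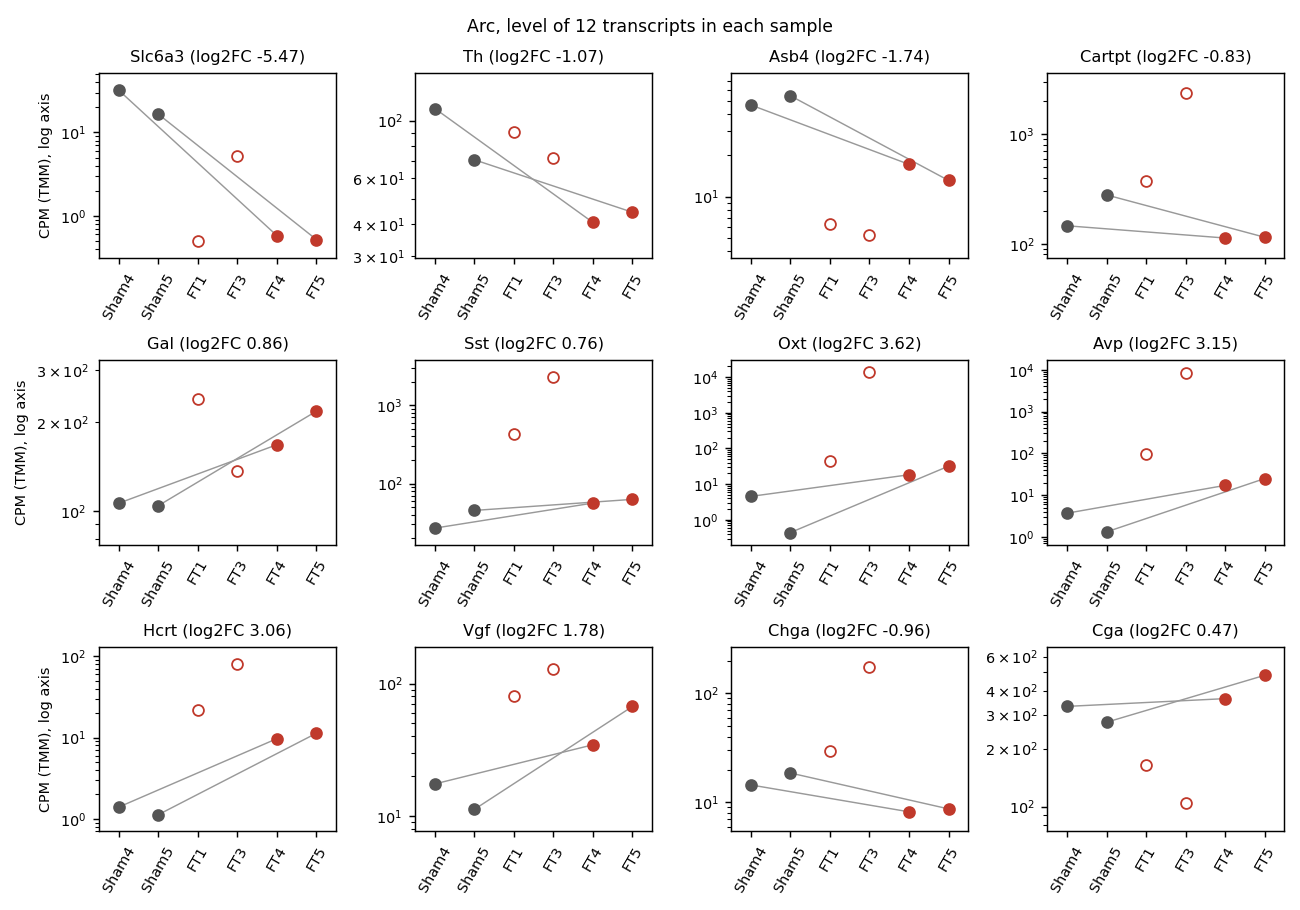
Each panel shows the CPM of a transcript (log axis) in the 6 Arc samples, grey for Sham and red for FT, with filled circles joined by a line for the complete pairs and open circles for FT replicates 1 and 3. Slc6a3 and Asb4 are lower in every FT sample, and Oxt, Avp, Hcrt, Gal, Sst and Vgf are higher in every FT sample. FT replicate 3 reaches 13737 CPM for Oxt. The open circles have no Sham partner.

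Transcripts that mark arcuate neurons did not move together. Asb4 (ENSRNOT00000012657) had 46.7 and 54.6 CPM in Sham and 6.31, 5.21, 17.2 and 13.1 CPM in FT. Every FT sample was below both Sham samples, and the unpaired FT samples were the lowest. On the scale over all samples, VMH Sham replicates 1 and 3 were also low. They had 5.8 and 2.17 CPM, against 10.85 and 11.2 CPM in Sham 4 and 5. In the lateral hypothalamus they had 5.2 and 2.93 against 3.11 and 3.79 CPM. Asb4 fell (log2FC -1.74, SE 0.20, adjusted p = 0.0145). Cartpt, whose peptides reduce food intake, had 146 and 279 CPM in Sham and 375, 2379, 113 and 115 CPM in FT. It fell in both pairs (log2FC -0.83, SE 0.26, adjusted p = 0.0805), while FT replicates 1 and 3 were above both Sham samples, so the groups overlapped. Gal, the precursor of galanin, had 106 and 104 CPM in Sham and 239.6, 137, 168 and 218 CPM in FT. All FT samples were above both Sham samples and Gal rose (log2FC 0.86, SE 0.18, adjusted p = 0.0342). On the scale over all samples, lateral hypothalamus Sham replicates 1 and 3 had 101 and 48.4 CPM of Gal, against 6.31 and 20.9 CPM in Sham 4 and 5. In VMH these Sham samples overlapped, at 116 and 62.65 against 35.35 and 70.75 CPM. Sst, somatostatin, the inhibitor of growth hormone release, had 26.9 and 45.3 CPM in Sham and 426, 2329.7, 56.3 and 62.7 CPM in FT. It rose in the edgeR test (log2FC 0.76, SE 0.21, adjusted p = 0.066) but not with DESeq2 (adjusted p = 0.107). On the scale over all samples, VMH Sham replicates 1 and 3 had 97.8 and 331 CPM of Sst, against 16 and 42.7 CPM in Sham 4 and 5. Crabp1, a retinoic acid-binding protein found in arcuate neurons, had 7.89 and 13.6 CPM in Sham and 60.5, 111, 12.6 and 19.4 CPM in FT, and its rise (log2FC 0.59, SE 0.16, adjusted p = 0.0594) was not called by DESeq2 (adjusted p = 0.392). PENK, the enkephalin precursor, and Tacr3, the neurokinin B receptor, were not called, with log2FC of -0.29 (SE 0.30) and -0.10 (SE 0.28). Of the 7 members measured, 3 rose and 2 fell, against 44.5% and 26.2% of named transcripts.

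Promoters of the measured members of the dopamine, cofactor, peptide, hormone, processing and serotonin lists were searched for the letters TGACGTCA, the full palindromic form of the cAMP response element, which reads the same on both strands and which is known from the promoters of several neuropeptide genes as a site bound by CREB. RefSeq windows of 300 bases, from 250 before to 50 after the gene start in the build GRCr8, were matched by symbol for 35 of 43 such genes. The motif was present in 4 of them, Th, Cartpt, Sst and Vgf. They are shown because they carry the same letters and were called in both directions, Th and Cartpt lower and Sst and Vgf higher. Capitals mark the motif. The windows are Th chr1:207508169-207508468 (minus strand), Cartpt chr2:32991186-32991485 (minus strand), Sst chr11:90461296-90461595 (plus strand) and Vgf chr12:25276971-25277270 (minus strand), each written 5′ to 3′ on the strand of the gene.
Th: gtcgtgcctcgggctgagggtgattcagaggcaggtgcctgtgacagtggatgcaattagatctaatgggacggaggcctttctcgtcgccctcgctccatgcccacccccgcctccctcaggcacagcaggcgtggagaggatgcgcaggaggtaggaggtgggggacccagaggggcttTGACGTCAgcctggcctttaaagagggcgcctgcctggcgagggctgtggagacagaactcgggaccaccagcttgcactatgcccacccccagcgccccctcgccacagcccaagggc
Cartpt: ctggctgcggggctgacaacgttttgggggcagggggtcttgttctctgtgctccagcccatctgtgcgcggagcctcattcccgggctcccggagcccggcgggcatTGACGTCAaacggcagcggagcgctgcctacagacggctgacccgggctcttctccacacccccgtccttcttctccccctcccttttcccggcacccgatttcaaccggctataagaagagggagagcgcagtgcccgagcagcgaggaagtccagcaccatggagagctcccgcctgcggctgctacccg
Sst: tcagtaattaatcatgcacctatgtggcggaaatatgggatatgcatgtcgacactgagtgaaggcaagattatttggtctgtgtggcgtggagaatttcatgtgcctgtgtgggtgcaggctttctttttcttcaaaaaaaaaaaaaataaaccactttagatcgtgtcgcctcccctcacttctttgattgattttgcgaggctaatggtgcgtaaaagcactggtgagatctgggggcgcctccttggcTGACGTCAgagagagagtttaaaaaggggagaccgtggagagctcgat
Vgf: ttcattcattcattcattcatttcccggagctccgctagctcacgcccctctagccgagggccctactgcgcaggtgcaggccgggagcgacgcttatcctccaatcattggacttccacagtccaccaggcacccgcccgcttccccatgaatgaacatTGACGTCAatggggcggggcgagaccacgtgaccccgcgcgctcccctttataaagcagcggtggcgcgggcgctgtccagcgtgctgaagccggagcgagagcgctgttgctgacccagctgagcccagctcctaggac

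In the windows of 300 bases the motif began at base 182 in Th, 109 in Cartpt, 161 in Vgf and 253 in Sst, counted from 1 at the 5′ end. It was present in 1.83% of all 33469 promoters of the same length and in 3.87% of the 1370 that matched a named and tested transcript. Among the latter it was present in 26 of 614 called higher (4.23%), 13 of 378 called lower (3.44%) and 14 of 378 not called (3.70%). These are matches of letters and do not show that a factor binds there.

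Peptides that mark neighbouring hypothalamic nuclei gave the 3 largest rises among named genes with a mean of at least 5 CPM. Oxt (ENSRNOT00000028829), oxytocin, had 4.54 and 0.441 CPM in Sham and 45, 13737, 18.3 and 31.9 CPM in FT. The 2 Sham samples had 65 and 9 reads, and the paired FT samples 318 and 370. It rose (log2FC 3.62, SE 0.83, adjusted p = 0.0435), and the log2 ratios of the pairs were 1.98 and 5.74. Avp (ENSRNOT00000028833), vasopressin, had 3.7 and 1.32 CPM in Sham and 94.9, 8446, 17.1 and 24.9 CPM in FT and rose (log2FC 3.15, SE 0.47, adjusted p = 0.0193). Hcrt (ENSRNOT00000025547), the orexin precursor, had 1.4 and 1.13 CPM in Sham and 21.9, 80.8, 9.69 and 11.3 CPM in FT and rose (log2FC 3.06, SE 0.25, adjusted p = 0.0125). Cck, cholecystokinin, had 3.07 and 1.76 CPM in Sham and 10, 36, 4.62 and 13.2 CPM in FT and rose (log2FC 1.77, SE 0.53, adjusted p = 0.0756). In each of these 4 genes every FT sample was above both Sham samples, against 31.3% of named transcripts. FT replicates 1 and 3 have no Sham partner. On the scale over all samples, VMH Sham replicates 1 and 3 had 95.3 and 711 CPM of Hcrt, against 9.46 and 19.9 CPM in Sham 4 and 5. For Avp they had 16.85 and 1093 against 9.96 and 9.15 CPM, and for Cck 4.66 and 11.95 against 6.4 and 4.06 CPM. Of the 10 members of the list with a name, 8 were tested, and 4 were higher and none was lower. The shares of named transcripts were 44.5% and 26.2%. Rln3 and Ucn were below the filter on low counts, with 0 to 4 reads in every library. Npvf was not called, with 114 and 115 CPM in Sham and 171, 106, 120 and 82.2 CPM in FT (log2FC -0.21, SE 0.19, adjusted p = 0.472). Nor were Vip, with a log2FC of -0.95 (SE 0.83), and Nmb, with -0.71 (SE 0.38). The highest Sham medians of Cck, Vip and Nmb lay outside the hypothalamus, so their levels do not mark neighbouring nuclei. On the scale over all samples they were in the infralimbic cortex (421 CPM), cingulate cortex (60.4 CPM) and dorsal dentate gyrus (27.3 CPM). Summed over the 8 tested members, the levels were 469 and 399 CPM in Sham, 537 and 648 CPM in the paired FT samples, and 527 and 22524 CPM in FT replicates 1 and 3. The 8 include Cga, the pituitary subunit described below. Of these sums Cga held 331 and 274 CPM in Sham and 363 and 480.2 CPM in the paired FT samples. In FT replicates 1 and 3 it held 164 and 104 CPM. The part of tissue from neighbouring nuclei in these differences was not tested.

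Cga, the pituitary subunit, was not called in Arc, with 331 and 274 CPM in Sham and 164, 104, 363 and 480.2 CPM in FT (log2FC 0.47, SE 0.21, adjusted p = 0.179). The paired FT samples were above both Sham samples and the unpaired FT samples below them.

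The libraries of replicate 3 were high in Oxt in both treatments elsewhere. On the scale set over all samples, Oxt in VMH was 2157 CPM in Sham replicate 3 and 13060 CPM in FT replicate 3, against 5.74 to 36.6 CPM in the other 6 VMH samples. In the lateral hypothalamus (LH) the Sham and FT samples of replicate 3 had 2032 and 1399 CPM, against 1.87 to 12.4 CPM in the others. The Arc value of FT replicate 3 on that scale was 10200 CPM, and it has no Arc Sham sample of its number beside it. Without FT replicate 3 the log2FC of Oxt was 3.52 with the block, and Oxt was still called. With the block that sample is alone under its number and carries no weight in the log2FC. Leaving it out is therefore no check on its influence.

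**Figure D3:**
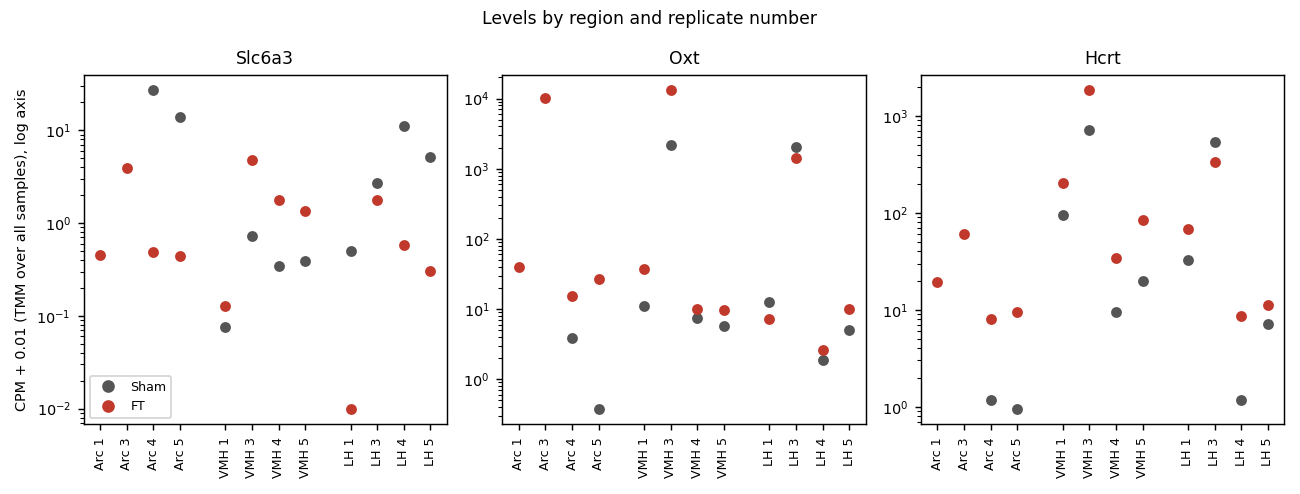
The CPM of Slc6a3, Oxt and Hcrt (log axis, 0.01 added, scaled over all samples of the series) is shown for Sham (grey) and FT (red) samples by region and replicate number. Replicate 3 holds the highest Oxt values in Arc, VMH and LH, in Sham as well as FT where both exist, and Slc6a3 is lower in FT than in Sham in replicates 4 and 5 of Arc and LH but higher in those of VMH.

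Peptide processing genes were all called, in both directions, against 70.7% of named transcripts. Vgf, a granule protein cut into several peptides, had 17.5 and 11.2 CPM in Sham and 80, 129, 34.5 and 67.2 CPM in FT and rose (log2FC 1.78, SE 0.36, adjusted p = 0.0331). On the scale over all samples, VMH Sham replicates 1 and 3 had 34 and 49.25 CPM of Vgf, against 21.3 and 14.6 CPM in Sham 4 and 5. The 2 transcripts named Pcsk1n and PCSK1N, for proSAAS, an inhibitor of the convertase encoded by Pcsk1, rose by 0.79 (SE 0.20) and 1.48 (SE 0.21) on the log2 scale. They share a name, and reads could be split between them. Ptprn, a membrane protein of dense-core granules, rose by 0.58 (SE 0.18). By contrast Chga, chromogranin A, had 14.5 and 18.6 CPM in Sham and 29.7, 176, 8.19 and 8.72 CPM in FT and fell (log2FC -0.96, SE 0.17, adjusted p = 0.026) in the pairs, with FT replicates 1 and 3 above both Sham samples. Pcsk2, another prohormone convertase, had a log2FC of -0.74 (SE 0.16) and Cpd, carboxypeptidase D, -1.03 (SE 0.17). Both were called lower, Pcsk2 with FT replicate 3 above both Sham samples. Of the 7 members, 4 rose and 3 fell. DESeq2 kept 3 of the rises and 2 of the falls, and did not call Ptprn (adjusted p = 0.253) or Pcsk2 (adjusted p = 0.235).

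Receptors and signalling genes for hormones and energy state were lower more often than higher. Of 13 members tested, 6 fell, 2 rose and 5 were not called, against 26.2% lower and 44.5% higher among named transcripts. The median log2FC was -0.76, against 0.43 over named transcripts and 0.018 over all transcripts. Nr3c2, the mineralocorticoid receptor, had 5.1 and 6.56 CPM in Sham and 0.401, 1.04, 2.48 and 1.9 CPM in FT, every FT sample below both Sham samples, and fell (log2FC -1.39, SE 0.34, adjusted p = 0.0483). On the scale over all samples, VMH Sham replicates 1 and 3 had 0.666 and 2.17 CPM, against 4.73 and 6.33 CPM in Sham 4 and 5. In LH they had 0.867 and 5.62 against 4.0 and 5.98 CPM. Ntrk2, the receptor for BDNF, had 212 and 235 CPM in Sham and 174, 142, 148 and 117 CPM in FT, again without overlap, and fell (log2FC -0.76, SE 0.18, adjusted p = 0.0485). Enho, the precursor of adropin, had 2.58 and 4.41 CPM in Sham and 11.6, 73, 1.15 and 1.29 CPM in FT and fell in the pairs (log2FC -1.46, SE 0.31, adjusted p = 0.0362), with FT replicates 1 and 3 above both Sham samples. Stat5b, a mediator of growth hormone and prolactin signalling, and Thra, the thyroid hormone receptor alpha, were called lower at log2FC of -1.02 (SE 0.27) and -0.57 (SE 0.15). For Thra FT replicates 1 and 3 were above both Sham samples, at 83.8 and 257 against 39.3 and 39.1 CPM, and for Stat5b FT replicate 3 was, at 21.4 against 5.24 and 8.28 CPM. Prkag1, a subunit of the energy sensor AMPK, was called lower at -0.91 (SE 0.21), with FT replicate 3 above both Sham samples, whereas Prkaa2, a catalytic subunit, was not called at -0.85 (SE 0.36). Stk11, the kinase that activates AMPK, was higher at 1.03 (SE 0.30) and Npr1, a natriuretic peptide receptor, at 0.77 (SE 0.23). Ghrl, Igfbp2, Igfbp5 and Agt were not called, with log2FC of -0.81, 0.22, -0.12 and 0.54. DESeq2 called 3 of the 13, Enho, Ntrk2 and Stk11.

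Htr1a, the serotonin 1A receptor and the single serotonin gene with a name, was sparse. It had 10 and 20 reads in Sham and 1, 6, 1 and 0 reads in FT, and FT replicate 3, the smallest library, held the 6. It was called lower (edgeR adjusted p = 0.0389), DESeq2 gave no adjusted p, and no fold is given at these counts.

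Of 6 tested genes of GABA transmission, 5 fell (83.3%, against 26.2% of named transcripts) and none rose (median log2FC -1.0), and Gabra6 was below the filter, with 0 to 3 reads. Gabrg1, a subunit of the GABA-A receptor, had 66 and 65.8 CPM in Sham and 24, 52.7, 27.1 and 21.5 CPM in FT. Another subunit, Gabrb1, had 52.3 and 61.1 CPM in Sham and 21.9, 29.7, 27.5 and 26.6 CPM in FT. All FT samples were below both Sham samples in both, and the tests gave log2FC -1.45, SE 0.16, adjusted p = 0.0145 for Gabrg1 and log2FC -1.06, SE 0.15, adjusted p = 0.0182 for Gabrb1. Gabrb2, Gabra3 and Gad2 were the other 3 called lower. DESeq2 called Gabrg1 and Gabrb1 alone among the 6. Among glutamate receptors, 2 of 7 fell and 1 rose. Grm3, a metabotropic receptor that lowers transmitter release, had a log2FC of -0.88 (SE 0.16) with every FT sample below both Sham samples, and was not called by DESeq2 (adjusted p = 0.126).

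Ion channels were lower in 8 of 19 cases and higher in 3, against 26.2% lower and 44.5% higher among named transcripts. Kcnk9, a two-pore potassium channel that sets the resting potential, had 5.52 and 4.41 CPM in Sham and 0.401, 45.4, 0.577 and 0.173 CPM in FT. It fell in both pairs (log2FC -3.65, SE 0.43, adjusted p = 0.0152) but FT replicate 3 was the highest of the 6 samples. On the scale over all samples the Sham sample of replicate 3 was also high in VMH, at 24.3 CPM, against 3.51 and 4.93 CPM in Sham replicates 4 and 5. Scn2b, a sodium channel subunit, had a log2FC of -1.97 (SE 0.32) with no overlap between groups. Synaptic vesicle genes were mixed, with 9 of 22 lower and 6 higher. Napb and Amph, which serve vesicle fusion and recycling, fell by 2.02 (SE 0.35) and 1.90 (SE 0.22) on the log2 scale. Syngr1, a vesicle membrane protein, had a log2FC of -1.73 (SE 0.51), to which DESeq2 gave no adjusted p, and in Amph and Syngr1 FT replicate 3 was above both Sham samples.

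Of 34 nuclear genes of the respiratory chain, 23 rose (against 44.5% of named transcripts), 3 fell and 8 were not called, and the median log2FC was 0.82. In 25 of the 34 every FT sample was above both Sham samples, against 31.3% of named transcripts (15.9% had every FT sample below). FT replicates 1 and 3 have no Sham partner, and elsewhere Sham samples of these numbers were high in the same genes. In VMH, on the scale set over all samples, Ndufab1 was 406 and 371 CPM in Sham replicates 1 and 3 against 40.8 and 62.6 CPM in 4 and 5, and Ndufb2 was 137 and 967 against 20.5 and 27.7 CPM. In Arc, Ndufab1, the acyl carrier subunit of complex I, had 32.3 and 48.5 CPM in Sham and 328, 314, 233 and 322 CPM in FT and rose (log2FC 2.79, SE 0.17, adjusted p = 0.00884). Ndufb2, another complex I subunit, had 16.8 and 18.3 CPM in Sham and 197, 1469, 61.4 and 71.6 CPM in FT and rose (log2FC 1.92, SE 0.18, adjusted p = 0.0128), and Uqcrq of complex III rose by 1.56 (SE 0.18). DESeq2 called 15 higher and none lower. The mitochondrial ribosome was similar, with 19 of 25 members higher and 2 lower. Mrpl51, Mrps7 and mrpl11 rose by 1.83 (SE 0.32), 1.65 (SE 0.16) and 1.35 (SE 0.21) on the log2 scale, and DESeq2 called 12 members higher and 1 lower. For Mrpl51 the unpaired FT samples, at 79.7 and 30.8 CPM, were below both Sham samples, at 323 and 256 CPM.

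Of 8 transcripts encoded by the mitochondrial genome, MT-ATP8 was called higher at a log2FC of 1.68 (SE 0.44), which DESeq2 did not call (adjusted p = 0.278), and the other 7 were not called, with a median log2FC of -0.21 over the 8. Cytosolic ribosomal proteins had 22 of 29 members not called, 6 lower and 1 higher, against 26.2% lower and 44.5% higher among named transcripts. Rpl14, Rpl18 and Rps27a had log2FC of -1.51 (SE 0.22), -1.36 (SE 0.17) and -0.69 (SE 0.18), while FT replicates 1 and 3 were above both Sham samples in all 3. Ribosomal protein genes have many near-identical copies between which the counting could split reads, so these values are uncertain. The levels of the 29 members summed to 6526 and 5394 CPM in Sham and 14514, 34955, 4959 and 4685 CPM in FT.

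**Figure D4:**
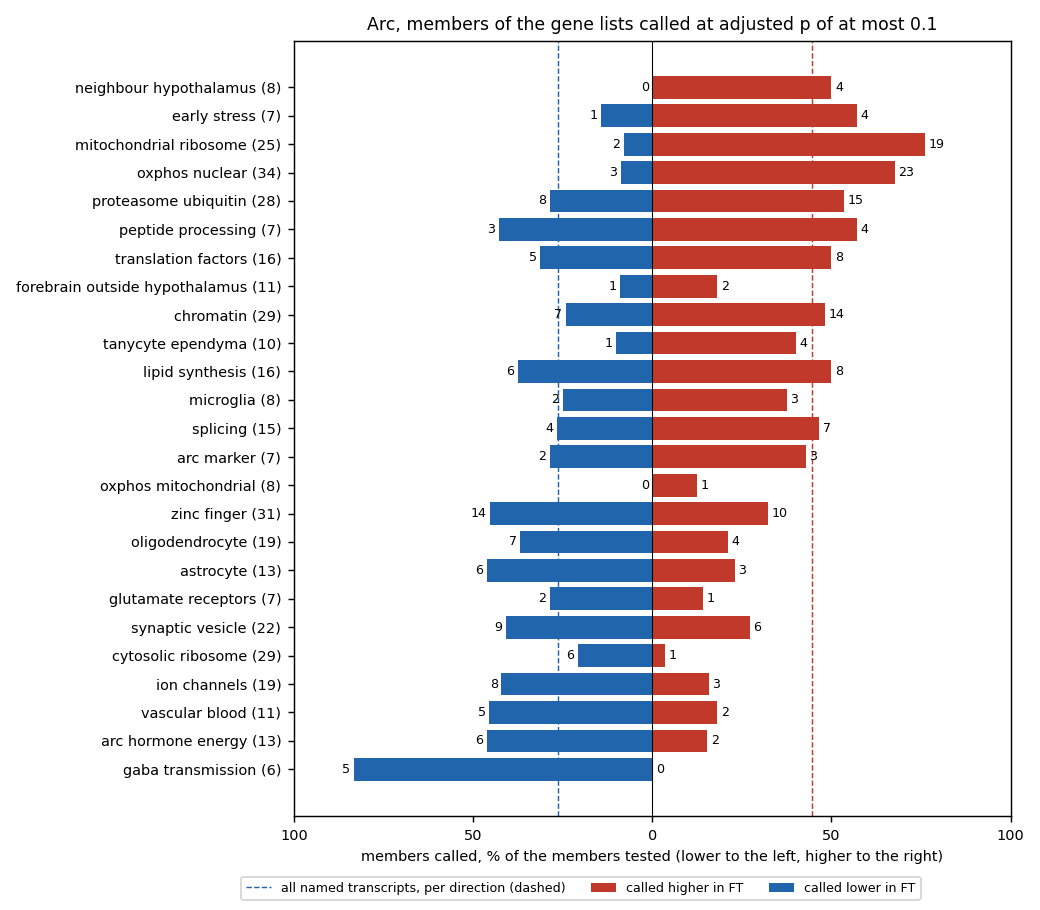
For each list with at least 6 tested members (number in parentheses) the bars give the percentage of members called higher (red, to the right) and lower (blue, to the left), with counts at the bar ends and dashed lines at the shares of all named transcripts, 44.5% and 26.2%. The mitochondrial ribosome and nuclear respiratory chain reach furthest to the right and GABA transmission furthest to the left.

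Genes that act on chromatin were higher in 14 of 29 cases and lower in 7, near the shares of named transcripts. Setdb1, a methyltransferase that silences repeats, had 66.9 and 116 CPM in Sham and 21.8, 27.1, 245 and 377 CPM in FT and rose in the pairs (log2FC 1.78, SE 0.16, adjusted p = 0.0128), while FT replicates 1 and 3 were below both Sham samples. Its partner Trim28 rose by 1.65 (SE 0.20) with no overlap between groups, and Smarca5, a remodelling ATPase, by 1.72 (SE 0.29). In the ubiquitin and proteasome list 15 of 28 rose and 8 fell. Usp42, Otub1 and Usp19, which remove ubiquitin, rose by 2.08 (SE 0.33), 1.59 (SE 0.22) and 1.43 (SE 0.32). Splicing genes were higher in 7 of 15 cases and lower in 4, with Snrnp70, a protein of the U1 particle, at 2.64 (SE 0.44) and Sf3a1 at 1.37 (SE 0.28). Translation factors were higher in 8 of 16 and lower in 5, with Eif3c at 1.18 (SE 0.20) and Eif4ebp2, a repressor of cap-dependent translation, at -1.36 (SE 0.24). Zinc finger genes were lower in 14 of 31 and higher in 10, with Zfp414 at -2.06 (SE 0.29), Zfp644 at 1.99 (SE 0.33) and Zfp280b at 1.53 (SE 0.28). In Usp42, Sf3a1, Zfp644 and Zfp280b FT replicates 1 and 3 were below both Sham samples, and in Zfp414 FT replicate 3 was above both.

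Genes that respond to time of day or temperature included Cirbp, the cold-inducible RNA-binding protein, which had 120 and 96.4 CPM in Sham and 342, 132, 472 and 1111 CPM in FT and rose (log2FC 2.75, SE 0.38, adjusted p = 0.0171) with no overlap. Dbp, a transcription factor of the circadian output, had 55.5 and 43.7 CPM in Sham and 109, 82.4, 107 and 187 CPM in FT and rose (log2FC 1.52, SE 0.28, adjusted p = 0.028). Early-response and stress genes were higher in 4 of 7 cases and lower in 1, against 44.5% higher and 26.2% lower among named transcripts. Tsc22d2 rose by 1.68 (SE 0.27) in the pairs, with FT replicates 1 and 3 below both Sham samples, and Txnip, a glucose-responsive inhibitor of thioredoxin, had 79.6 and 67.2 CPM in Sham and 46.1, 24.5, 35.3 and 27.6 CPM in FT and fell (log2FC -1.23, SE 0.14, adjusted p = 0.0145). Lipid synthesis genes were higher in 8 of 16 and lower in 6. Lpin2, a phosphatidate phosphatase, rose by 2.32 (SE 0.23) in the pairs, with FT replicates 1 and 3 below both Sham samples, and Cds2, which makes CDP-diacylglycerol from the same substrate, had a log2FC of -2.67 (SE 0.41) and 67.3 CPM in FT replicate 3 against 4.05 and 4.99 CPM in Sham.

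Among the 10 largest rises not yet described, C1qtnf4, a secreted protein expressed in brain, had 0.279 and 0.343 CPM in Sham and 12.7, 131, 2.65 and 2.59 CPM in FT and rose (log2FC 3.02, SE 0.33, adjusted p = 0.0145). On the scale over all samples, VMH Sham replicates 1 and 3 had 7.99 and 86.2 CPM of C1qtnf4, against 1.45 and 1.52 CPM in Sham 4 and 5. In LH they had 3.1 and 60.6 against 1.07 and 3.82 CPM. Pde6h, a phosphodiesterase subunit known from cones, had 12.9 and 7.34 CPM in Sham and 2.91, 0.521, 57 and 91.7 CPM in FT and rose (log2FC 2.89, SE 0.35, adjusted p = 0.0154). Angptl6, an angiopoietin-related growth factor, had 10.8 and 9.84 CPM in Sham and 4.81, 1.56, 39.4 and 88.6 CPM in FT and rose (log2FC 2.53, SE 0.31, adjusted p = 0.0159). In both of these the unpaired FT samples were below both Sham samples. Endog, a mitochondrial nuclease, was at or below 1.98 CPM in all libraries but FT replicate 3, with 28.2 CPM, and had a log2FC of 2.64 (SE 0.60).

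Among the 10 largest falls, Gpr165, an orphan receptor, had 67.2 and 67.5 CPM in Sham and 4.51, 79.8, 13.8 and 7.16 CPM in FT and fell (log2FC -2.72, SE 0.25, adjusted p = 0.0128). Mat2a, which makes the methyl donor S-adenosylmethionine, had 125 and 151 CPM in Sham and 6.41, 37, 34.4 and 20.2 CPM in FT, with every FT sample below both Sham samples, and fell (log2FC -2.37, SE 0.26, adjusted p = 0.0145). On the scale over all samples, VMH Sham replicates 1 and 3 had 19.65 and 55.8 CPM, against 92.3 and 91.3 CPM in Sham 4 and 5. In LH they had 13.9 and 57.2 against 92.4 and 68 CPM. Others were called lower from the pairs. SDC3, a syndecan, had a log2FC of -3.07 (SE 0.27), Wbp2 of -2.87 (SE 0.39), Bgn, the proteoglycan biglycan, of -2.39 (SE 0.26), Cotl1 of -2.43 (SE 0.52) and Celf4, an RNA-binding protein, of -2.29 (SE 0.31). In SDC3, Wbp2, Gpr165, Cotl1 and Celf4 FT replicate 3 was the highest of the 6 samples. Among transcripts without a name, under the same limits of level and pairs, the largest changes were ENSRNOT00000075747, higher at a log2FC of 4.16, and ENSRNOT00000071231, lower at -3.60. In FT replicate 3 they stood at 855 and 1783 CPM, the highest of the 6 samples.

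Markers of other cell types gave the following counts, to be read against 44.5% higher and 26.2% lower among named transcripts. DESeq2 left uncalled, among the genes named here, Tppp and Lamp5 (adjusted p = 0.21 and 0.405), and gave no adjusted p for Endog and Ltc4s. Of 13 astrocyte genes, 6 fell and 3 rose, with Slc7a10, a serine and glycine transporter, at 1.52 (SE 0.14) and Slc6a11, a GABA transporter, at -1.48 (SE 0.29). Their summed level was 2131 and 1946 CPM in Sham and 5164, 38337, 1744 and 1849 CPM in FT, lower in the pairs and higher in FT replicates 1 and 3. Of 19 oligodendrocyte genes, 7 fell and 4 rose, and their summed level was 1060.4 and 1002 CPM in Sham and 719 to 856 CPM in FT, with no overlap. Every FT sample was below both Sham samples in 9 of the 19 and above both in 6. The shares of named transcripts were 15.9% and 31.3%. Ppp1r14a was called higher at 2.39 (SE 0.48) from 0.0699 and 0.539 CPM in Sham, and Tppp lower at -1.29 (SE 0.41). Of 8 microglial genes, 3 rose and 2 fell, with Cx3cr1, the fractalkine receptor, at -1.35 (SE 0.18) and Ltc4s at 2.28 (SE 0.38). The sum was 101 and 104 CPM in Sham and 173, 153, 96.6 and 97.9 CPM in FT, with overlap. Of 11 vascular and blood genes, 5 fell and 2 rose, with Ogn at -1.64 (SE 0.27). The sum was 739 and 264 CPM in Sham and 729, 2872, 425 and 295 CPM in FT, with overlap. Of 10 tanycyte and ependymal genes, 4 rose and 1 fell, with Riiad1 at 1.04 (SE 0.23) and Tekt1 at -1.12 (SE 0.19, FT replicates 1 and 3 above both Sham samples), and their summed level was 337 and 342 CPM in Sham and 420 to 488 CPM in FT.

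Of 4 tested choroid plexus genes, Ttr, transthyretin, alone was called. It had 27.1 and 6.07 CPM in Sham and 45, 67.8, 58 and 46.4 CPM in FT and rose (log2FC 1.95, SE 0.40, adjusted p = 0.0347). Sostdc1 was below the filter, with 1 to 13 reads. Of 11 genes of the forebrain outside the hypothalamus, 2 rose and 1 fell, against 44.5% and 26.2% of named transcripts. Tcf7l2 stood at 0.98 (SE 0.15) and Lamp5 at -0.67 (SE 0.18). The part of changed cell make-up in the differences between FT and Sham was not tested.

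To ask whether the response of Arc differed from that of its neighbours, it was compared with VMH and LH, over replicates 4 and 5. These regions are separate samples, but by the study's methods the punches of a replicate come from the same animals, so the regions are not independent. In the joint fit with VMH, 1 of 14872 transcripts (0.00672%) had a different response, Slc6a3. Its log2FC was -5.47 in Arc and 2.07 (SE 0.62) in VMH, and the difference was -7.56 (SE 0.56, edgeR adjusted p = 0.00169). In VMH it rested on 6 and 7 reads in Sham and 29 and 20 reads in FT, and the difference was -8.22 in replicate 4 alone and -6.86 in replicate 5 alone. DESeq2 called Slc6a3 and also Ttr (0.00879% of transcripts), which had a log2FC of 1.95 in Arc and -0.92 (SE 0.34) in VMH, with a difference of 2.87 (adjusted p = 0.0136). In the joint fit with LH, 0 of 15340 transcripts passed in edgeR, with 636 at an unadjusted p under 0.05, and DESeq2 called 1 (0.00393%), which has no name. Slc6a3 was lower in FT in LH too, at a log2FC of -4.19 (SE 0.50, edgeR adjusted p = 1.69e-13), from 251 and 136 reads in Sham to 10 and 5 in FT. In replicate 3, on the scale set over all samples, Slc6a3 in VMH was 0.724 CPM in Sham and 4.82 CPM in FT. In replicate 1 of VMH it was 0.0666 CPM in Sham and 0.119 CPM in FT. In LH, Sham replicates 1 and 3 had 0.495 and 2.69 CPM, against 11.2 and 5.15 CPM in Sham 4 and 5. FT replicates 1 and 3 of LH had 0 and 1.75 CPM, so the large fall in LH was seen in replicates 4 and 5.

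No other gene passed the edgeR test of the difference at these settings. With no filter on low counts edgeR also called Th, Oxt, Avp and Ttr for Arc against VMH, and Oxt and Ttr for Arc against LH, among 12 and 31 transcripts. Th had a log2FC of 0.65 (SE 0.24) in VMH and -1.32 (SE 0.33) in LH, and Arc minus VMH was -1.74 (SE 0.38, DESeq2 adjusted p = 0.317). Oxt had a log2FC of 0.54 (SE 0.31) in VMH and 0.78 (SE 0.40) in LH, and its difference from VMH was 3.06 (SE 0.93). Hcrt was also called higher in both neighbours, at 1.93 (SE 0.24) in VMH and 1.65 (SE 0.38) in LH. So were Avp, at 1.62 (SE 0.26) and 2.75 (SE 0.42), and Cck, at 1.225 (SE 0.31) and 2.49 (SE 0.36). For Avp the difference of Arc from VMH was 1.51 (SE 0.53) and from LH 0.35 (SE 0.66). Asb4 was lower in FT in VMH and LH as well, with -1.44 (SE 0.32) and -1.60 (SE 0.52) in turn, and Cirbp was higher in both, with 2.62 (SE 0.30) and 2.67 (SE 0.41). For Asb4 the difference of Arc from VMH was -0.33 (SE 0.32) and for Cirbp 0.11 (SE 0.46).

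**Figure D5:**
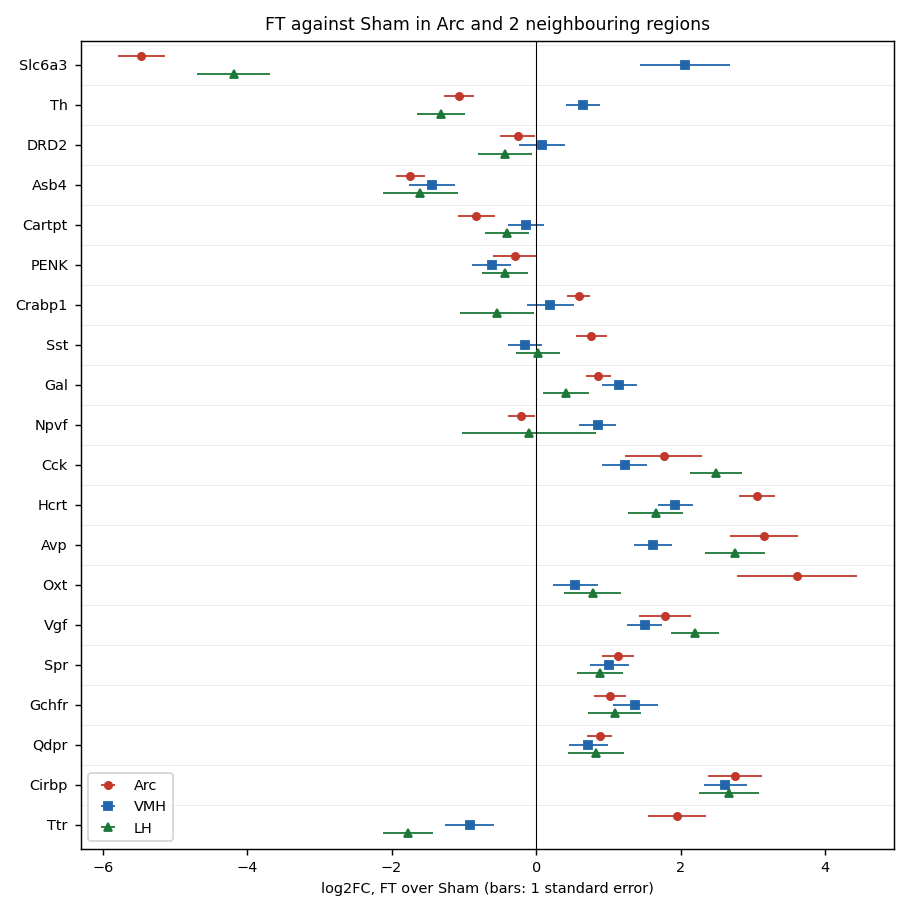
The log2FC of FT over Sham (horizontal axis, bars of 1 standard error) is shown for 20 genes in Arc (circles), VMH (squares) and LH (triangles), the latter 2 from replicates 4 and 5. Slc6a3 lies at -5.47 in Arc and -4.19 in LH and on the other side of 0 in VMH, while Asb4, Vgf, Spr, Qdpr and Cirbp lie close together in the 3 regions.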

How the data were processed

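The labels describe polyadenylated RNA, whereas the study's methods name a stranded total RNA kit; libraries were read as 76 bp pairs. Per the labels and the study's methods, the authors aligned reads with STAR to the rat build rn5 and counted them on 29188 transcripts with HTSeq. Tool versions and the strand setting are not given in the sources used here, so overlapping and antisense genes cannot be told apart. The deposited values are raw counts, one file per sample. The 5 summary lines were dropped. Reads assigned to no feature stood at 22.1% in FT replicate 1, 38.2% in FT replicate 3 and 40.9 to 47.9% in the other 4 libraries, as a share of counted, ambiguous and no-feature reads together. Total counts on transcripts ran from 5876787 to 14442194.

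Counts were tested with edgeR 4.0.16 in R 4.3.3 (quasi-likelihood, TMM factors, filterByExpr at 10 counts per library and 15 in total). The replicate number was a block, since the methods state that FT and Sham of a number were processed in parallel and entered as a batch. In the 4 paired samples the deviations from the group means of same-numbered samples had an r of -0.088, so the data themselves do not show the pairing. SE is the absolute log2FC over the square root of F. DESeq2 1.42.0, RLE factors, no filter, no block, complete pairs only, leaving out each sample and an adjusted p of 0.05 were the alternatives. Log2 ratios of pairs use CPM with a prior count of 2. Interactions with VMH and LH used replicates 4 and 5. Scripts were tested on simulated data.

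Names came only from the study's supplementary list, which gives 1844 of the transcripts in the files a name. The members and gene lists were chosen with earlier results of these data known. Genes named were all measured members of the arcuate, neighbouring, dopamine, cofactor, hormone, processing and serotonin lists, the 10 largest named rises and falls with a mean of at least 5 CPM and the same direction in both pairs, and for every other list the 3 called members with the largest change (2 for lists under 20). One listed gene is not reported here. No annotation of rn5 was used here, so positions of the transcripts are not given.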

Additional observations from a re-analysis of the deposited data

Results flagged for a closer look

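Among 103 named transcripts, 7 had an FT sample far from the other 3, measured by its gap over the group's range (Dixon's criterion), and 6 of these 7 samples were FT replicate 3. Chance alone flags about 1 in 20 groups. Oxt had 13737 CPM in FT replicate 3 against 18.3 to 45 CPM in the others. Slc6a3 had 5.21 CPM there against 0.501 to 0.577 CPM, Kcnk9 45.4 CPM against 0.173 to 0.577 CPM, and SDC3 41.2 CPM against 1.47 to 2.5 CPM. In reads, Slc6a3 had 10 in FT replicate 3, the smallest library, and 5, 10 and 6 in FT replicates 1, 4 and 5. Htr1a had 3.13 CPM there, from 6 reads, against 0 to 0.1 CPM. Tacr3 was low in FT replicate 3, at 0.521 CPM, from 1 read, against 4.23 to 5.83 CPM. Ndufab1 was low in FT replicate 4, at 233 CPM against 314 to 328 CPM, and still above both Sham samples.

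Slc6a3 differed between regions. The difference of its log2FC, Arc minus VMH, was -7.56 (edgeR interaction term), with a fall in Arc and a rise in VMH.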

How the results depend on the processing

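In edgeR the count of DEGs fell to 0 where FT replicate 1 or 3 entered without the block, but not in the complete pairs without it. With the block, edgeR called 3551, DESeq2 819, and edgeR 1681 at an adjusted p of 0.05. RLE factors, no low-count filter and the complete pairs with the block gave 3904, 3405 and 3830. Without the block there were 0 over the 6 samples in edgeR, 280 in DESeq2, and 4337 in the complete pairs alone. Leaving out 1 sample gave 0 to 3741, with 3677 and 3741 without FT replicate 1 and 3 (block kept) and 0 without either sample of replicate 4 or 5, where no block could be fitted and 163 to 1880 transcripts had an unadjusted p under 0.05. Chosen after seeing the data, no block without FT replicate 3 gave 0 in edgeR (1771 at an unadjusted p under 0.05), and DESeq2 on the complete pairs without the block gave 2978. Where 1 Sham sample was left, it is assumed to vary like the others. Calls over all gene lists were 273, with 141 in DESeq2 and 0 without the block. Transcripts with all FT on one side of all Sham were 31.3%, or 65.2% in the complete pairs. For Arc minus VMH, 1 transcript became 2 with DESeq2 and 12 with no filter. For Arc minus LH, 0 became 1 and 31. Leaving out a replicate allows no test of these interactions.

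No named gene changed sign in any fit that kept the block, or in the complete pairs without it. Of the 90 named genes called, DESeq2 with the block did not call 19. Without the block the log2FC of 19 genes changed sign, at Chga 1.72, PENK 0.045, Thra 1.31, Cga -0.12, Npvf 0.063, Nmb 0.28, Cartpt 1.81, Vip 0.45, Stat5b 0.18, Enho 2.56, Kcnk9 1.08, Wbp2 0.64, Cds2 1.82, Cotl1 0.95, Celf4 1.22, Rpl14 0.31, Rpl18 1.31, Rps27a 1.26 and Syngr1 0.50. In DESeq2 without the block 19 did, at Chga 1.69, PENK 0.015, Thra 1.27, Cga -0.14, Npvf 0.030, Nmb 0.25, Cartpt 1.76, Vip 0.41, Stat5b 0.17, Enho 2.57, Kcnk9 1.14, Wbp2 0.63, Cds2 1.85, Cotl1 1.03, Celf4 1.26, Rpl14 0.26, Rpl18 1.26, Rps27a 1.20 and Syngr1 0.58. With 1 sample left out, the log2FC ranges of genes that changed sign at least once were Cartpt -0.86 to 2.34, Cds2 -3.13 to 2.26, Celf4 -2.32 to 1.84, Cga -0.52 to 0.44, Chga -0.99 to 2.09, Cotl1 -2.46 to 2.11, Enho -1.49 to 3.0, Kcnk9 -3.70 to 1.54, Mrpl51 -0.036 to 1.79, Nmb -0.75 to 0.58, Npvf -0.24 to 0.21, Ogn -1.67 to 0.064, PENK -0.38 to 0.66, Pcsk2 -0.77 to 0.071, Rpl14 -1.55 to 0.64, Rpl18 -1.40 to 1.67, Rps27a -0.72 to 1.59, SDC3 -3.10 to 0.14, Sf3a1 -0.030 to 1.33, Stat5b -1.06 to 0.56, Syngr1 -1.77 to 1.05, Tacr3 -0.82 to 0.076, Tekt1 -1.15 to 0.13, Thra -0.61 to 1.64, Vip -0.98 to 2.69, Wbp2 -2.91 to 1.35 and Zfp280b -0.12 to 1.5. These ranges span fits that kept the block, where an unpaired FT sample was left out, and fits without it, where a paired sample was left out. Every sign change in them was in a fit without the block. The ranges therefore do not show the effect of leaving out a sample alone. The cause of the sign changes was not tested. The block leaves 1 residual degree of freedom, and each sample is a pool, so p-values measure the spread between pools, which may be technical.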
